A study of Homo sapiens with 8 samples.

Results

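Extracellular matrix and bone matrix genes were followed in U-2OS osteosarcoma cells after knockdown of CGGBP1, a zinc finger protein that binds CGG trinucleotide repeats. The members were 49 genes chosen by symbol: collagens, the enzymes and the chaperone that make collagen, matrix glycoproteins, matrix proteases with their inhibitors, and bone genes. Of these, 48 were found among the 18388 genes of the count table, and 42 were among the 10138 genes with enough reads to be tested. COL1A2, the partner chain of COL1A1, was not analysed here.

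The extracellular matrix is the scaffold of secreted proteins around cells. Fibrillar collagens are folded from procollagen chains in the endoplasmic reticulum, where prolyl and lysyl hydroxylases modify them and SERPINH1 chaperones them. After secretion BMP1 trims them and lysyl oxidases cross-link them. Bone matrix is mostly type I collagen with smaller amounts of glycoproteins such as SPARC (osteonectin) and SPP1 (osteopontin), and osteoblasts, the cells that osteosarcoma resembles, are its main source.

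All cells were U-2OS Tet-ON, a human osteosarcoma line that carries a Tet-ON transactivator, and every label names DMSO. Cells were given control siRNA (siControl) or a pool of siRNAs against CGGBP1 (siCGGBP1) at 50 nM for 72 h, then 75 µM 4-thiouridine (4sU) for 60 min, with 3 libraries per group. Control cells without 4sU and with 200 µM gave 1 siControl library each, and these entered no fit. The read counts come from the 3′ ends of transcripts, so a gene's level was not divided by gene length. It is given as CPM, in the compared libraries as reads per 1000000 reads of the tested genes after scaling with TMM factors. The libraries without 4sU and with 200 µM were scaled to the reads of all genes and without TMM, so comparisons with them are on mixed scales. Nothing in the labels ties the libraries to separate cultures, so p-values measure only the spread between them.

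The 6 compared libraries held 10127519 to 14221516 reads, and 8 of the tested members had at least 1000 reads in every one of them. The median new-to-total RNA ratio over all tested genes was 0% in replicate 3 of both groups and in the library with 200 µM 4sU, and 2.78% to 4.74% in the other libraries compared. By conversions per 100 covered T, siControl replicate 3 was the lowest of the 6 at 0.183, while siCGGBP1 replicate 3, at 0.241, lay among the others. CGGBP1 itself was read at 108, 94.2 and 77.1 CPM in siControl and at 18.4, 10.1 and 31.4 in siCGGBP1. Its groups did not overlap, and its RNA fell by 2.22 ± 0.39 on the log2 scale (SE, edgeR quasi-likelihood test, adjusted p = 0.0138). Without siControl replicate 1 its adjusted p from the same test was 0.0632, and without siCGGBP1 replicate 1 it was 0.0851.

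Because CGGBP1 binds CGG repeats near promoters, the bases upstream of SPARC, THBS1 and SPP1 are shown, each ending just before the annotated transcript start. They were taken from RefSeq promoter windows (GRCh38.p14), read 5′ to 3′ on the gene's strand, with each CGG triplet of either strand (CGG or CCG, overlapping ones included) in capitals. SPARC lies on the minus strand (chr5:151686976-151687165), THBS1 on the plus strand (chr15:39580829-39581078) and SPP1 on the plus strand (chr4:87975464-87975666).
SPARC: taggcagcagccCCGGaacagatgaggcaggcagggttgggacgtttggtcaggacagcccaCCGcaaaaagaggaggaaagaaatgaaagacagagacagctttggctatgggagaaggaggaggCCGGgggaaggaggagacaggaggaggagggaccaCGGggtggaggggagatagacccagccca
THBS1: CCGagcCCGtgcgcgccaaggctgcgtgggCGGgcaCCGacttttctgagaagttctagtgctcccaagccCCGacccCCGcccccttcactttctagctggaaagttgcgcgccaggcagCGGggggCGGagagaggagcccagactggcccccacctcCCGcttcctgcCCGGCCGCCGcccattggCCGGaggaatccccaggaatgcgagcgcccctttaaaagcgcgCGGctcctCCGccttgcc
SPP1: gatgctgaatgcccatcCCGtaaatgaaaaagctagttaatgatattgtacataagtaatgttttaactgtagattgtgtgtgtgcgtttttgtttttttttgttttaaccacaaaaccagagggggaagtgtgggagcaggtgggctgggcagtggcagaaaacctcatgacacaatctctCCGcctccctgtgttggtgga
The THBS1 stretch held 17 triplets in 250 bases, the SPARC stretch 6 in 190 bases and the SPP1 stretch 2 in 203 bases. The longest uninterrupted run was 2 repeats for THBS1 and 1 for SPARC and SPP1. Over the whole windows, which run from 250 bases before to 50 bases after the start, a run of at least 3 CGG repeats on either strand was found in 3 of the 39 members with a window (7.69%). The members were COL18A1, with a run of 3, PLOD2, also with 3, and COL7A1, with 4. The share was 7.46% among all genes with a window. Among tested genes it was 3.03% of the members (1 of 33) and 14.7% of all genes. No window was matched for COL1A1, COL3A1, COL5A2, COL6A1, COL8A1, LOXL2, BMP1, MMP2 and TIMP2. PLOD2 was the only tested member with such a run, and its RNA was read at 77.0 to 105 CPM in siControl and 63.8 to 98.2 in siCGGBP1, where the groups overlapped.

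In total RNA, COL1A1 and SPARC rose after CGGBP1 knockdown and THBS1 fell. The other 39 tested members were not called. Calls needed an edgeR adjusted p under 0.05 and a log2 fold change beyond 1 in either direction. By this rule 2 of 42 members were called higher (4.76%), where 0.454% of all tested genes were, and 1 was called lower (2.38%), where 0.957% of all tested genes were. Dropping the size limit gave the same 3 genes, against a background of 0.572% higher and 1.21% lower. The members were chosen with earlier results of these data known. These shares and those that follow are therefore descriptive and no unbiased measure of enrichment.

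The uncalled members lay mostly above 0. Of the 42 fold changes, 33 were above 0 and 9 below, with a median of 0.46 on the log2 scale, beside a median of 0.00 over all tested genes. For 14 members every siCGGBP1 library lay above every siControl library (33.3% of the 42, against 12.1% of all tested genes), and for 2 every library lay below (4.76%, against 12.1%). At an unadjusted p under 0.05 from the same test there were 16 members (38.1%), against 16.4% of all tested genes. When the siControl libraries with 0 and 200 µM 4sU were also counted, a comparison chosen after seeing the data, 7 of the 14 higher members and both lower ones still did not overlap. The shares were then 16.7% and 4.76%, against 6.04% higher and 7.36% lower among all tested genes. The added libraries were scaled without TMM, so narrow separations may depend on the scaling. COL5A1 separated by 93.1 in siCGGBP1 against 93.0 CPM in siControl, and P4HB overlapped by 357 against 358.

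**Figure D1:**
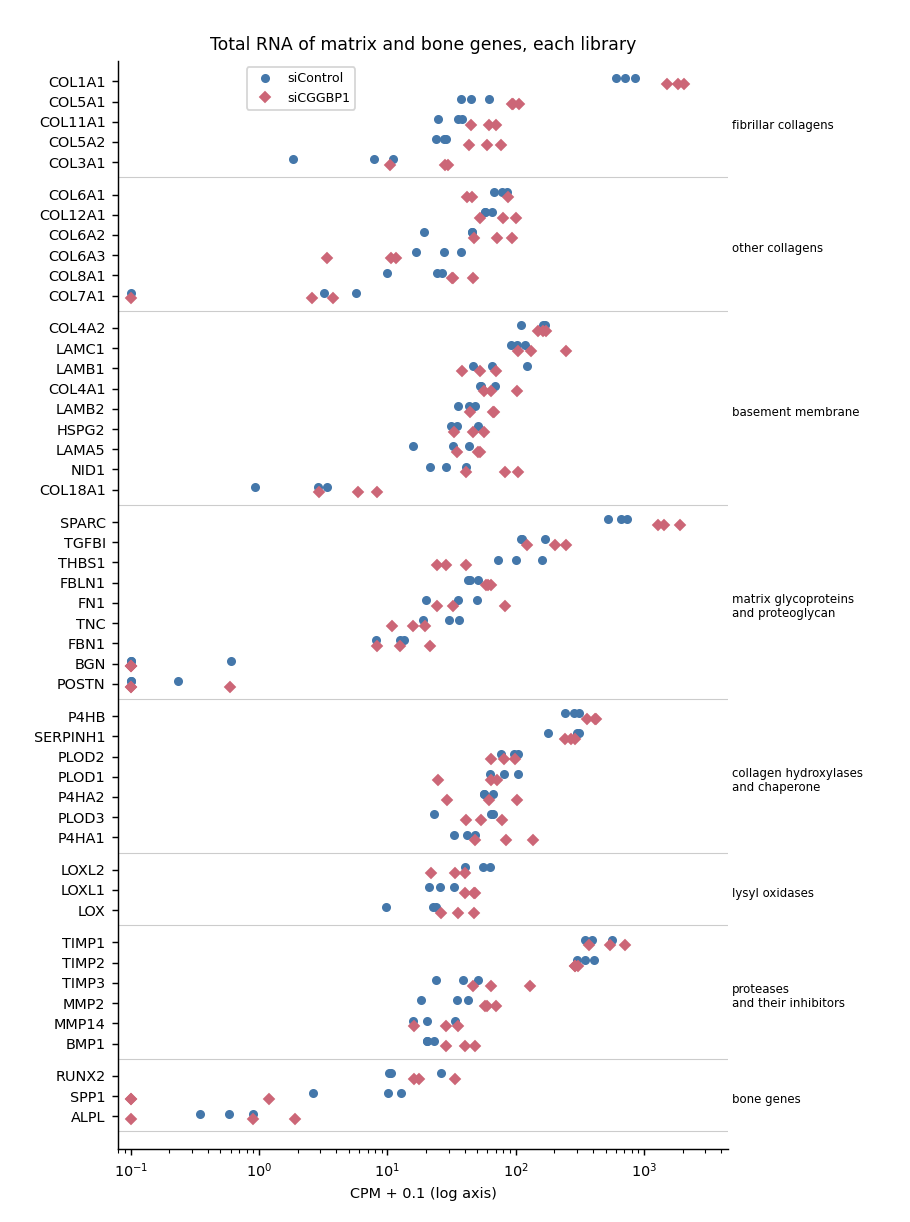
CPM of the 48 members (log axis, 0.1 added to each value), with 1 point per library for the 3 siControl (circles) and 3 siCGGBP1 (diamonds) libraries, grouped by role. COL1A1 and SPARC are at the far right with siCGGBP1 clearly above siControl, THBS1 shows the opposite order, and most other members overlap or lie close together.

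COL1A1 encodes the main chain of type I collagen (chr17:50184101-50201632, minus strand, GRCh38). Its RNA was read at 710, 605 and 850 CPM in siControl and at 1840, 1494 and 2044 in siCGGBP1. All 3 siCGGBP1 libraries exceeded all siControl libraries, including those without 4sU (804) and with 200 µM (837). The mean went from 721 ± 123 to 1792 ± 278 (SD, n = 3), a 2.48-fold rise with a log2 fold change of 1.31 ± 0.18 (SE, 95% interval 0.97 to 1.66, edgeR quasi-likelihood test, adjusted p = 0.00353).

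COL1A1 was the most abundant member in siControl, at rank 167 of the 18388 genes. The remaining 4 tested fibrillar collagens were not called, and all had fold changes above 0, so that the median of the 5 was 1.18 on the log2 scale. The minor fibrillar collagens type V and type XI, which set the diameter of type I and type II fibrils, had groups that did not overlap. They are given here because their values were seen to separate. COL5A1 was read at 37.5, 44.8 and 61.8 in siControl and at 93.1, 95.3 and 106 in siCGGBP1 (log2 fold change 1.03 ± 0.27, SE, edgeR adjusted p = 0.0801). COL5A2 was read at 28.3, 23.6 and 27.4 in siControl and at 76.3, 59.6 and 43.3 in siCGGBP1 (1.18 ± 0.32, SE, edgeR adjusted p = 0.0863). COL11A1 was read at 38.0, 35.2 and 24.8 in siControl and at 70.3, 61.5 and 44.5 in siCGGBP1 (0.85 ± 0.32, SE, edgeR adjusted p = 0.200). The siControl library without 4sU reached 93.0 for COL5A1, just under the lowest siCGGBP1 value, and 54.7 for COL5A2, inside the siCGGBP1 range. COL11A1 was at 70.7 in the library with 200 µM 4sU, above every siCGGBP1 library. COL3A1, the type III collagen of soft tissue, was low, with 1.74 to 10.9 CPM in siControl and 10.3 to 29.7 in siCGGBP1, and its groups overlapped.

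**Figure D2:**
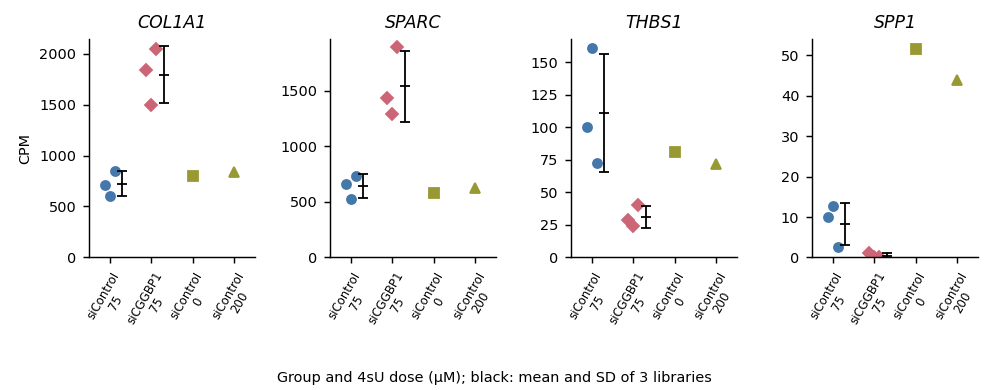
CPM of COL1A1, SPARC, THBS1 and SPP1 in each library, by group and 4sU dose in µM, with the mean and SD of the groups of 3 in black. The siControl libraries at 0 and 200 µM lie with the other siControl libraries for COL1A1, SPARC and THBS1, while SPP1 is higher in both of them than in any other library.

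Among the other collagens no member was called. Type VI collagen forms beaded filaments around cells from several chains, and its 3 listed chains had different values. COL6A2 was read at 45.2, 45.7 and 19.1 in siControl and at 71.5, 92.7 and 47.3 in siCGGBP1 (log2 fold change 0.94 ± 0.38, SE, edgeR adjusted p = 0.235). COL6A3 was read at 27.4, 16.5 and 37.6 in siControl and at 10.6, 11.5 and 3.27 in siCGGBP1 (-1.68 ± 0.59, SE, edgeR adjusted p = 0.176). COL6A1 overlapped between groups, with 67.0 to 85.2 in siControl and 41.4 to 86.7 in siCGGBP1. COL6A2 and COL6A3 thus had groups that separated in opposite directions, with neither past the threshold, and the difference between them was not tested. The siControl library with 200 µM 4sU was at 68.3 for COL6A2, inside the siCGGBP1 range. COL6A3 was at 16.5 and 35.4 in the libraries with 0 and 200 µM, above every siCGGBP1 library. COL8A1, a short-chain collagen, was read at 9.91 to 26.7 in siControl and at 31.6 to 46.5 in siCGGBP1. COL12A1, which sits on the surface of type I fibrils, overlapped at 57.1 to 64.8 and 52.6 to 99.4. COL7A1, the anchoring fibril collagen of skin, had at most 67 reads in any compared library and was not tested.

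Basement membrane is the sheet of type IV collagen, laminin, nidogen and perlecan under epithelia and around many cells. None of its 8 tested members was called and none had groups that did not overlap. The fold changes were above 0 for 7 of them, with a median of 0.42 on the log2 scale. NID1, the nidogen that links laminin to type IV collagen, had the largest of these. It was read at 40.8, 28.5 and 21.3 in siControl and at 104, 40.7 and 82.6 in siCGGBP1, so that siCGGBP1 replicate 2 fell just below siControl replicate 1 (1.33 ± 0.38, SE, edgeR adjusted p = 0.0985). The network chain COL4A2 was read at 110 to 168 in siControl and 149 to 171 in siCGGBP1, and its partner COL4A1 at 52.7 to 68.7 and 56.3 to 101. The laminin chains ranged from 91.3 to 117 and 103 to 245 for LAMC1 to 15.8 to 42.9 and 34.8 to 53.0 for LAMA5. LAMB1, at 46.5 to 122 and 38.1 to 69.4, was the basement membrane member with a fold change below 0. COL18A1, the source of endostatin, had 10 to 115 reads per library and was not tested.

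SPARC is a collagen-binding glycoprotein that is abundant in bone (chr5:151661096-151686975, minus strand, GRCh38). Its RNA was read at 664, 526 and 734 CPM in siControl and at 1439, 1289 and 1899 in siCGGBP1. The siControl libraries with 0 and 200 µM 4sU held 579 and 627, so all 5 siControl libraries were below all siCGGBP1 libraries. The log2 fold change was 1.27 ± 0.19 (SE, 95% interval 0.90 to 1.63), a 2.40-fold rise (edgeR quasi-likelihood test, adjusted p = 0.00634). SPARC was the second most abundant member in siControl, at rank 200 of all genes.

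The proportion of COL1A1 to SPARC overlapped between the groups, with 1.07 to 1.16 COL1A1 reads per SPARC read in siControl and 1.08 to 1.28 in siCGGBP1. It was 1.39 and 1.33 in the siControl libraries with 0 and 200 µM 4sU. These genes together took 0.113% to 0.152% of all reads in siControl and 0.276% to 0.390% in siCGGBP1. The remaining members took 0.279% to 0.348% and 0.357% to 0.380%. In the siControl libraries with 0 and 200 µM 4sU, the remaining members took 0.385% and 0.381%, above the siCGGBP1 libraries, while COL1A1 and SPARC together stayed at 0.138% and 0.146%.

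THBS1 encodes thrombospondin, a secreted glycoprotein that binds cells and matrix and can activate latent TGF-beta (chr15:39581079-39599466, plus strand, GRCh38). It was read at 100, 161 and 72.6 CPM in siControl and at 28.6, 24.1 and 40.5 in siCGGBP1. All siCGGBP1 libraries lay below all siControl libraries, with 80.8 and 71.8 at 0 and 200 µM 4sU. THBS1 fell by 1.84 ± 0.34 on the log2 scale (SE, edgeR quasi-likelihood test, adjusted p = 0.0181), a 3.58-fold lower level. This call depended on which libraries were kept. The edgeR adjusted p was 0.0515 and 0.0846 without siControl replicates 1 and 2, and 0.103 and 0.0753 without siCGGBP1 replicates 1 and 2.

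The remaining matrix glycoproteins were not called. FN1 encodes fibronectin, the cell-adhesive glycoprotein on which collagen fibrils are laid down. It was read at 49.6, 35.6 and 19.9 in siControl and at 32.2, 24.2 and 82.5 in siCGGBP1, where replicate 3 alone lay above the siControl libraries (0.40 ± 0.47, SE, edgeR adjusted p = 0.739). Without siCGGBP1 replicate 3 the log2 fold change was -0.31. FBLN1, a fibulin of elastic and basement membrane matrix, had narrow groups that did not overlap, at 44.0, 50.5 and 42.1 in siControl and 64.4, 61.1 and 58.3 in siCGGBP1. The siControl libraries with 0 and 200 µM 4sU lay on either side of both groups, at 6.84 and 74.2. TGFBI, TNC and FBN1 overlapped between groups. BGN and POSTN had at most 5 reads in any of the libraries.

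**Figure D3:**
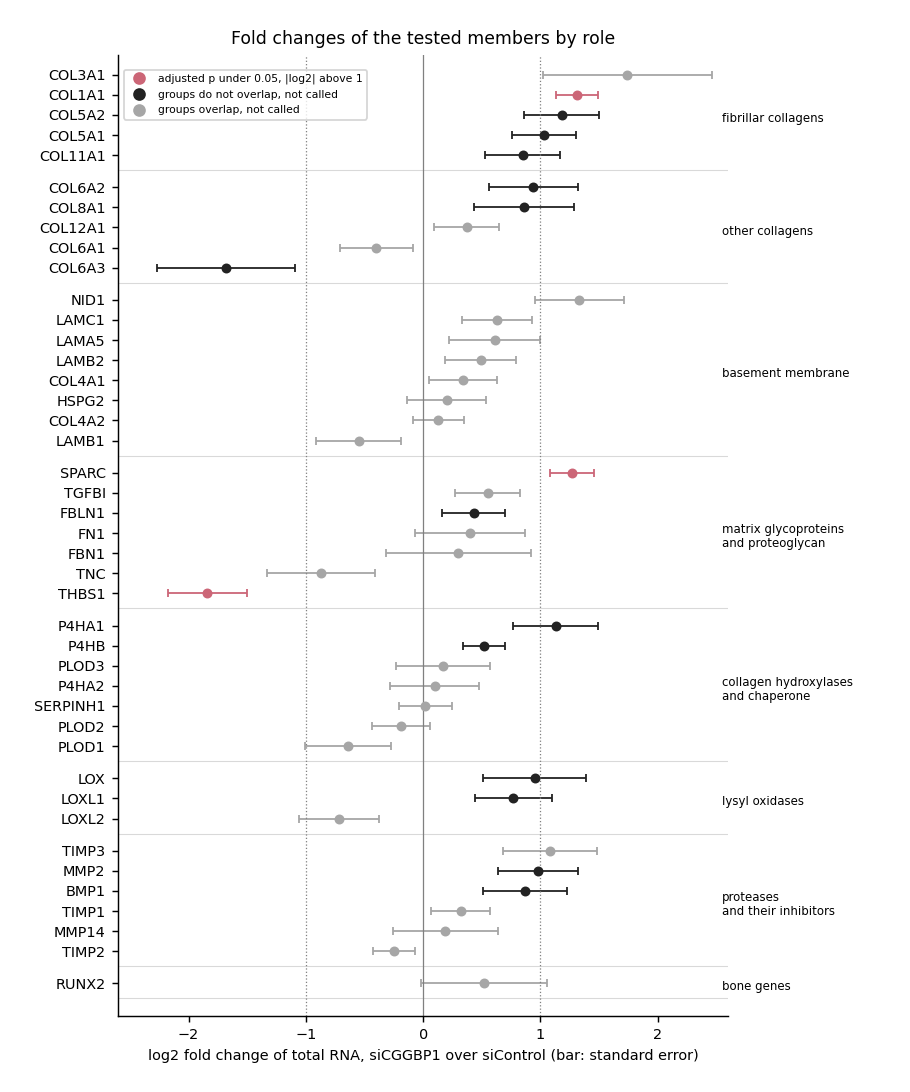
Log2 fold change of total RNA (siCGGBP1 over siControl) of the 42 tested members with its standard error, grouped by role, with dotted lines at the size limit of 1 in either direction. COL1A1 and SPARC at 1.31 and 1.27 and THBS1 at -1.84 are the called members, and 33 of the 42 points lie above 0.

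None of the 7 collagen hydroxylases and chaperone was called, and their median fold change was 0.10 on the log2 scale. P4HA1 and P4HB, the catalytic subunit of prolyl hydroxylase and the protein disulfide isomerase that completes it, had groups that did not overlap. P4HA1 was read at 47.6, 41.8 and 32.8 in siControl and at 83.9, 48.1 and 135 in siCGGBP1 (1.13 ± 0.36, SE, edgeR adjusted p = 0.133). P4HB was read at 242, 308 and 282 in siControl and at 413, 425 and 357 in siCGGBP1 (0.52 ± 0.18, SE, edgeR adjusted p = 0.168). The library with 200 µM 4sU reached 59.5 for P4HA1 and 358 for P4HB, inside the siCGGBP1 range in both cases. SERPINH1, the collagen-specific chaperone HSP47, had almost equal means of 262 ± 73.8 and 266 ± 25.1 (SD, n = 3). Its log2 fold change was 0.02 with a 95% interval of -0.43 to 0.46. The lysyl hydroxylases PLOD1, PLOD2 and PLOD3 and the second prolyl hydroxylase subunit P4HA2 overlapped between groups.

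Lysyl oxidases start the cross-links of collagen and elastin. LOX was read at 22.5, 23.9 and 9.56 in siControl and at 46.9, 26.0 and 35.3 in siCGGBP1 (0.95 ± 0.44, SE, edgeR adjusted p = 0.310). The siControl library without 4sU was at 40.9 for LOX, inside the siCGGBP1 range. LOXL1 was read at 21.1, 32.8 and 25.5 in siControl and at 46.8, 40.4 and 48.2 in siCGGBP1 (0.77 ± 0.33, SE, edgeR adjusted p = 0.268). LOXL2 had the opposite sign, with 39.8 to 62.9 in siControl and 21.9 to 40.2 in siCGGBP1, and its groups overlapped. No lysyl oxidase was called.

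Among the proteases and their inhibitors no member was called either. BMP1, the procollagen C-proteinase, was read at 20.1, 20.4 and 23.1 in siControl and at 40.3, 47.8 and 28.7 in siCGGBP1 (0.87 ± 0.36, SE, edgeR adjusted p = 0.249). MMP2, the gelatinase of denatured collagen, was read at 42.3, 34.9 and 18.0 in siControl and at 57.6, 59.6 and 70.4 in siCGGBP1 (0.98 ± 0.34, SE, edgeR adjusted p = 0.174). Both lay above all 5 siControl libraries, as did LOXL1 and COL8A1. MMP14, the membrane protease that activates MMP2, overlapped at 15.8 to 33.3 and 15.9 to 35.3.

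TIMP1 and TIMP2, inhibitors of the metalloproteinases, were the next most abundant members in siControl. TIMP1 was read at 393, 560 and 345 in siControl and at 542, 708 and 375 in siCGGBP1, an overlap of the groups (0.32 ± 0.25, SE, edgeR adjusted p = 0.566). The siCGGBP1 library was the higher in each of its 3 same-numbered pairs. The same held for RUNX2, NID1, TIMP3, LAMA5, COL4A1 and MMP14, whose groups also overlapped. TNC, LOXL2, TIMP2, PLOD1 and PLOD2 overlapped too and were lower in siCGGBP1 in every pair. For MMP14 the replicate 3 pair differed only by 15.9 in siCGGBP1 against 15.8 CPM in siControl. The share of all tested genes with such an order was not computed, so no result about the members is read from these orders. With the replicate block the edgeR adjusted p of TIMP1 was 0.244, that of RUNX2 0.501 and that of NID1 0.0814. TIMP2 was read at 297 to 406 and 288 to 305. TIMP3, which is bound to the matrix, was read at 23.8 to 50.4 and 46.4 to 129, also with overlap.

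Bone genes other than COL1A1 and SPARC were low. RUNX2, the transcription factor that starts osteoblast differentiation, was read at 10.2, 10.6 and 26.0 CPM in siControl and at 17.5, 16.1 and 33.3 in siCGGBP1 (0.52 ± 0.54, SE, edgeR adjusted p = 0.702). Replicate 3 was the highest library in both groups. SPP1, the secreted phosphoprotein of bone, was not tested, because 1 of the 6 libraries reached 100 reads. Its counts were 99, 152 and 29 reads in siControl and 11, 0 and 0 in siCGGBP1, so the groups did not overlap. With a filter of 10 reads its log2 fold change was -4.53 ± 1.76 (SE) with an edgeR adjusted p of 0.280. ALPL, the tissue-nonspecific alkaline phosphatase of mineralizing cells, had 0 to 21 reads in the 6 libraries.

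Other marker genes were read at levels that bear on the labelled cell type. Of the osteoblast lineage markers, COL1A1 and RUNX2 were present at the levels given above. SP7 and BGLAP were at or near 0, with 5 and 107 reads in all over the 6 libraries, and IBSP was not analysed here. The 3 blood cell markers found summed to at most 0.687 CPM in any compared library and the 3 endothelial markers to at most 2.29. The epithelial markers EPCAM and CDH1 summed to 4.60 to 8.17 in siControl and 6.78 to 13.1 in siCGGBP1, with CDH1 at 0 throughout. Fewer cells of one kind and less RNA per cell cannot be told apart in bulk RNA.

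Genes of the surrounding pathways were described by lists chosen by function. No gene was called among the 18 tested for collagen folding and export, the 20 matrix receptors, the 19 genes of TGF-beta signalling or the 11 further osteoblast genes. Their median log2 fold changes were 0.19, -0.25, 0.03 and 0.18. In the same order, 11, 6, 10 and 7 fold changes were above 0 and 7, 14, 9 and 4 below. Among the 18 tested genes of collagen processing and fibril assembly 2 were called, both lower, with a list median of -0.22. Over all tested genes 0.454% were called higher and 0.957% lower. In this list 7 fold changes were above 0 and 11 below, and among the other matrix genes 8 were above and 12 below. The upward lean of the members was thus not shared by these lists or by the matrix receptors. MMP3, the stromelysin that degrades proteoglycans, was read at 77.4, 169 and 44.6 in siControl and at 12.7, 17.0 and 1.21 in siCGGBP1. It fell by 3.24 ± 0.73 on the log2 scale (SE, edgeR adjusted p = 0.0447). PLAU, the urokinase that activates plasmin, was read at 51.7, 36.3 and 56.0 in siControl and at 11.3, 19.7 and 8.18 in siCGGBP1. It fell by 1.87 ± 0.42 (SE, edgeR adjusted p = 0.0450). Of the 20 other matrix genes tested, TGM2, the transglutaminase that cross-links fibronectin, was called. It was read at 131, 124 and 153 in siControl and at 24.8, 29.4 and 6.05 in siCGGBP1, and fell by 2.76 ± 0.46 (SE, edgeR adjusted p = 0.0110), with a list median of -0.11. The calls of MMP3 and PLAU were lost in most fits that left out 1 library, with edgeR adjusted p from 0.0167 to 0.163 and from 0.0452 to 0.161. Both were also lost with all libraries kept and a filter of 10 reads (edgeR adjusted p = 0.0559 and 0.0582). PLAU had an adjusted p of 0.0660 with the replicate number as a block in edgeR. TGM2 lost its call without siControl replicate 3 (edgeR adjusted p = 0.0601) and without siCGGBP1 replicate 1 (0.0540).

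Newly synthesized RNA was compared to ask whether the same genes differed within the labelling time. In SLAM-Seq, 4sU in new RNA appears as T-to-C conversions, from which the fraction of new reads (the new-to-total ratio) is estimated. Summed over the tested members, the ratio was 2.42%, 3.58% and 1.41% in siControl and 2.80%, 1.82% and 2.23% in siCGGBP1, so the groups overlapped. Over all tested genes it was 4.49%, 5.30% and 4.69% in siControl and 5.04%, 3.86% and 5.69% in siCGGBP1. The member value was thus the lower of the pair in each of the 6 libraries, and it stayed lower without COL1A1 and SPARC, at 1.80% to 4.10%. The median member ratio was 0.645%, 2.81% and 0% in siControl and 1.99%, 1.24% and 0% in siCGGBP1, with 11 to 29 of the 42 members at a ratio of 0 (26.2% to 69.0%). Over all tested genes the median was 3.82%, 4.74% and 0% in siControl and 3.37%, 2.78% and 0% in siCGGBP1, and 22.5% to 59.8% of genes were at 0.

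**Figure D4:**
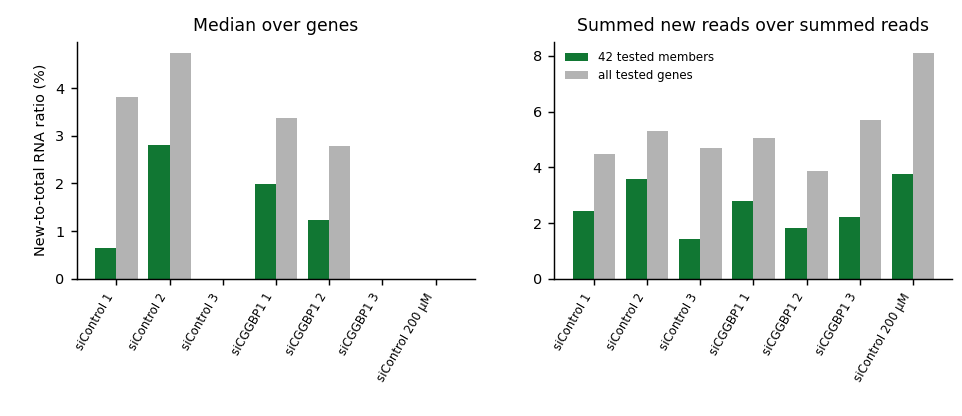
New-to-total RNA ratio in percent in each library that received 4sU, for the 42 tested members (green) and all tested genes (grey), as the median over genes (left) and as summed new reads over summed reads (right). In the summed form the members lie below all tested genes in every library, and both medians are 0 in replicate 3 of each group and in the 200 µM library.

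No member was called in newly synthesized RNA by edgeR, against a background of 0.0296% of genes called higher and 0.0197% lower, and DESeq2 called none either. The standard errors of the members' log2 fold changes, where they could be computed, ran from 0.90 to 4.13, so the lack of calls does not show that new RNA was alike in the groups. At an unadjusted p under 0.05 there was 1 member (2.38%), against 3.15% of all tested genes. New reads separated the groups upwards for 4 members (9.52%, against 2.90% of all tested genes) and downwards for 2 (4.76%, against 4.42%). The median log2 fold change of the members was 0.16, beside -0.03 over all tested genes.

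SPARC was the member with an unadjusted p under 0.05. Its new RNA was 8.91, 13.1 and 0.348 new CPM in siControl and 41.3, 16.2 and 40.0 in siCGGBP1. The groups did not overlap, but siControl replicate 3 was far below the others (log2 fold change 2.13 ± 0.90, SE, edgeR adjusted p = 0.994). COL1A1 had 8.21, 9.52 and 10.1 new CPM in siControl and 41.2, 11.3 and 10.2 in siCGGBP1, where replicate 1 alone stood clear of siControl (1.17 ± 1.03, SE, edgeR adjusted p = 1.00). Its ratio was 1.16%, 1.58% and 1.19% in siControl and 2.24%, 0.76% and 0.50% in siCGGBP1. The COL1A1 groups were thus separated only by 10.1 against 10.2 new CPM, and its ratios overlapped.

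THBS1 carried more label than COL1A1 and SPARC in all libraries except siCGGBP1 replicate 3. Its ratio was 9.78%, 10.2% and 7.29% in siControl and 18.5%, 21.9% and 0% in siCGGBP1. New CPM was 9.81, 16.4 and 5.30 in siControl and 5.28, 5.32 and 0 in siCGGBP1 (-1.57 ± 1.68, SE, edgeR adjusted p = 1.00). In siCGGBP1 replicate 3, THBS1 had 3 conversions in 569 reads. The remaining named members also varied widely between libraries of one group. FN1 went from 0% to 16.1% within siControl, and RUNX2 from 3.22% to 56.8% within siCGGBP1, with 0% again in siControl replicate 3. The log2 fold changes of new RNA were -1.97 ± 2.66 for FN1, 2.67 ± 2.35 for RUNX2 and 2.61 ± 2.46 for TIMP1 (SE). Leaving out 1 library moved all of these widely. RUNX2 was at 0.17 without siCGGBP1 replicate 3, FN1 at -3.67 without siCGGBP1 replicate 2, and TIMP1 at 9.24 without siControl replicate 1, where the remaining siControl libraries had 0 new reads. COL1A1 was at 0.22 without siCGGBP1 replicate 1, and THBS1 at -0.98 without siCGGBP1 replicate 3.

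The raw conversion rates set these ratios against the library without 4sU, which gives the background. COL1A1 had 0.103, 0.103 and 0.0686 conversions per 100 covered T in siControl and 0.135, 0.0901 and 0.0760 in siCGGBP1, against 0.0690 without 4sU. In siControl replicate 3 the rate of COL1A1 was thus at the level of unlabelled cells. SPARC had 0.138, 0.127 and 0.0589 in siControl and 0.182, 0.108 and 0.123 in siCGGBP1, against 0.0429. THBS1 had 0.389, 0.434 and 0.258 in siControl and 0.660, 0.836 and 0.0130 in siCGGBP1, against 0.0532, so that its rate in siCGGBP1 replicate 3 was below that of unlabelled cells.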

How the data were processed

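SLAM-Seq in U-2OS cells was analysed. The expected counts of reads, conversions and covered T per gene, as the authors deposited them, come from GRAND-SLAM, after bowtie2 2.3.0 (ribosomal reads), STAR 2.5.3a and GRCh38, and hold fractions for 11644 genes. The new-to-total RNA ratio was deposited by the authors as a fraction (maximum a posteriori and mean values with credible limits). No removal of PCR duplicates is stated. A further 39 deposited per-library columns were not used.

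Testing required 100 or more reads in 3 or more of the 6 libraries. Counts were rounded. New RNA was the count times the maximum a posteriori ratio, with library sizes from total reads. A ratio not given was set to 0 (184 values). Total and new RNA were each fitted by edgeR 4.0.16 (TMM, quasi-likelihood test, Benjamini-Hochberg over all tested genes) in R 4.3.3. Standard errors are the log2 fold change over the root of F. The 95% intervals treat the estimate as normal with that standard error, which makes them narrower than the F test would give. Same-numbered libraries of the groups deviated together (correlations over genes of 0.122, 0.215 and 0.105), so the numbers were taken to pair the libraries. The main fits held the group only and left this pairing out. Their standard errors and p-values are therefore unpaired, and the pairing entered only as a replicate block among the alternatives. The fits were checked on simulated data, in which the fit of new RNA did not recover changes well past the size limit, so a missing call there carries no information, and the fit of total RNA missed many changes near that limit. Alternatives were DESeq2 1.42.0, limma 3.58.1 (new RNA), other filters, scalings and ratios, a replicate block and leaving out each replicate.

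Values were named for members past the adjusted threshold, for COL1A1, FN1, SPARC, RUNX2, ALPL and SPP1, and for the 3 most abundant members. Other members were named after their values were seen, mostly because their groups did not overlap. Members and lists were chosen with earlier results of these data known. Gene positions and promoter windows came from GENCODE 44 and RefSeq (GRCh38.p14). One further marker gene is not reported here.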

Additional observations from a re-analysis of the deposited data

Results flagged for a closer look

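SPP1 and ALPL were read above the compared siControl libraries in data outside the comparison. SPP1 was at 51.5 CPM (979 reads) in the siControl library without 4sU and at 44.0 (500 reads) in the library with 200 µM 4sU, against at most 12.6 in the siControl libraries with 75 µM. ALPL was at 9.31 CPM (177 reads) in the library without 4sU, against at most 0.801, and had 0 reads in the library with 200 µM. Each dose has 1 library, so these differences have no replicate check.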

How the results depend on the processing

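COL1A1 and SPARC were called in all 11 alternative fits of total RNA, with log2 fold changes of 1.19 to 1.45 and 1.09 to 1.37. THBS1 stayed negative in all 11, at -2.07 to -1.48, and was no longer called in the 4 fits named above. Members called higher went from 2 to 5 with DESeq2, without a filter and at an adjusted p under 0.1, adding NID1 and COL5A1 each time, COL5A2 with DESeq2 and at 0.1, and P4HA1 without a filter. COL5A2 was also called without siCGGBP1 replicate 3, and leaving out 1 replicate gave 2 to 3 members higher and 0 to 1 lower. FN1 changed sign once, with a range of -0.31 to 0.74 over the fits that left out 1 replicate. With siControl at 0 and 200 µM counted, an alternative chosen after seeing the data, the members whose groups separated upwards went from 14 to 7. Those added libraries were scaled without TMM.

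Over all tested genes, 46 were called higher and 97 lower in total RNA. These counts were 166 and 205 with DESeq2, 121 and 206 without a filter, 122 and 169 at an adjusted p under 0.1, and 15 to 48 and 33 to 100 with 1 replicate left out. CGGBP1 ranged from -2.71 to -1.91 on the log2 scale. In new RNA, 3 genes were called higher and 2 lower. These were 11 and 19 with DESeq2, 11 and 7 from conversion counts, 0 and 0 with limma at 1 or 10 added, 1 higher with TMM on new reads, 4 lower with the posterior mean ratio, and 1 to 3 and 1 to 4 with 1 replicate left out. With the replicate block, new RNA had 1 and 1 gene called, total RNA had 54 higher and 107 lower, THBS1 was at -1.79 (edgeR adjusted p = 0.0473), and no call of a gene named above changed except that of PLAU. No member was called in new RNA in any of the 14 alternatives, which says nothing about stability at this spread. A run of at least 2 CGG repeats was found in 66.7% of member windows and 32.8% of all windows, beside 59.6% of tested genes. The mean of the median member ratios in siControl was 1.15%, and 0.323% without siControl replicate 2. The cause of these changes was not tested. Read counts without molecular identifiers are not independent molecules, and 6 members had too few reads to be tested.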
